A study of Mus musculus with 10 samples.

Results

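The gene group described here holds 10 genes that take part in the recognition of dying cells and in the uptake of debris and lipid. They are *Mertk* and *Tyro3* of the TAM receptors (named after TYRO3, AXL and MERTK), the TAM ligands *Gas6* and *Pros1*, the class B scavenger receptors *Cd36* and *Scarb1*, the class A receptor *Msr1*, the class H receptor *Stab1*, the large lipoprotein receptor *Lrp1* and the engulfment receptor *Megf10*. The members were taken as the rows whose gene symbol equals one of these names, and all 10 were found among the 25232 genes of the deposited table. RNA was sequenced from the spinal cord of 5 female mice of genotype sod1 g93a and 5 wild type females, all labelled as C57BL/6 and 90 days old. The methods name the lumbar region and describe the wild type mice as littermates. The sod1 g93a mouse carries many copies of a mutant human SOD1 transgene on top of its own *Sod1* gene, so that overexpression of SOD1 and the mutation cannot be told apart in these groups.

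For each gene the table gives 1 level, the base mean, which is the mean over all 10 libraries of reads divided by a size factor for each library. It pools both genotypes, so each value below is the authors' mean with no SD, and the spread between mice is not known. The remaining columns of the table are the authors' own comparison of the genotypes. They were not used, and the difference between sod1 g93a and wild type mice is not analysed here. Levels are compared between genes per kb of all exons of the gene (base mean per kb) unless another length is named, since a longer transcript gives more reads, and base means are given for the reads behind them.

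When a cell dies by apoptosis it exposes phosphatidylserine, a lipid that otherwise faces the inside of the cell membrane. *Gas6* and *Pros1* encode secreted proteins that bind this lipid and bridge it to the TAM receptor tyrosine kinases on phagocytes, and PROS1 also serves as an anticoagulant in blood. Scavenger receptors bind modified lipoproteins, lipids and other debris directly. In the central nervous system, microglia are the main phagocytes, and astrocytes also engulf synapses and debris through receptors that include MERTK and MEGF10.

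RefSeq promoter sequences of GRCm38.p6 were at hand for 7 of the members, namely *Mertk*, *Tyro3*, *Gas6*, *Pros1*, *Cd36*, *Stab1* and *Lrp1*. The 250 bases before the RefSeq gene start are shown for the members with the highest level per kb (*Gas6*, *Lrp1*) and for the lowest of the 7 (*Cd36*), written 5′ to 3′ on the strand of the gene, with each CG pair in capitals, because the density of CG pairs near the start goes along with the level across genes.
Gas6, chr8:13494536-13494785, strand -: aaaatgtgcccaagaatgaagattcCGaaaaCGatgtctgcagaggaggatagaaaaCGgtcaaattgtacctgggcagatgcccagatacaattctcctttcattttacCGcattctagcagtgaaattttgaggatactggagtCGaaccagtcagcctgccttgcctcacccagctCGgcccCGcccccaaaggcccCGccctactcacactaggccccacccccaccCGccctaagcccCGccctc
Lrp1, chr10:127621149-127621398, strand -: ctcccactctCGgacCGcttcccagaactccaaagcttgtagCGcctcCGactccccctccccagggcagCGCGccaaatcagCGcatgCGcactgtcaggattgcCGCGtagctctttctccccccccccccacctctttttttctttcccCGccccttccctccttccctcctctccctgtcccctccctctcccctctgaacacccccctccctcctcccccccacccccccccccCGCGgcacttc
Cd36, chr5:17835897-17836146, strand -: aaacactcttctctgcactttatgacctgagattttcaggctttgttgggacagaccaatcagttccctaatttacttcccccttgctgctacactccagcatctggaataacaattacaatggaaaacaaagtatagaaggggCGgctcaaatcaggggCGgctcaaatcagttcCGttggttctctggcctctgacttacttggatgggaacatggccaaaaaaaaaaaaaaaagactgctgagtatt

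The RefSeq start of *Cd36* lies 52.9 kb inside the gene as GENCODE M21 draws it, downstream of its outermost start, and that of *Tyro3* lies 1.78 kb inside, with 128 bases of the *Tyro3* window in exons of the gene. *Gas6* held 10 CG pairs in this window, *Lrp1* 13 and *Cd36* 3. The other windows held 24 CG pairs in *Tyro3*, 15 in *Pros1*, 7 in *Mertk* and 5 in *Stab1*. Over all 32851 windows the median was 6 CG pairs. The members with the fewest pairs, *Cd36*, *Stab1* and *Mertk*, were also the lowest of the 7 in level per kb, in the same order. The other 4 ran mostly the other way. *Gas6* and *Lrp1*, with fewer pairs, had 1694 and 1085 per kb. *Pros1* and *Tyro3*, with more pairs, had 149.8 and 395 per kb. Whether CG pairs go with the level among the members was not tested. Protein-coding genes with 1 window numbered 13590, and genes at 0 were kept among them, unlike in the median gene used below. The 5147 with at least 15 CG pairs had a median level of 147 per kb. The 3188 with at most 2 pairs had a median of 0. This is a description across genes, which are not independent. Of the members with a window, *Tyro3* and *Pros1* belong to the former class and none to the latter. The letters GGGCGG, known as the GC box, stood on either strand in 6 of the 7 member windows, all but *Stab1*, against 32.7% of all windows. Other motifs were searched as well. The TATA box (TATAAA) stood in none of the 7 windows, against 12.4% of all windows. The letters GAGGAA stood only in the window of *Stab1*, against 23.3% of all windows. They hold GGAA, the core of ETS sites, and GGAA by itself was not searched. All windows were not matched to the members for CG pairs, and the GC box itself holds a CG pair. Enrichment was not tested.

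The members lie on 7 chromosomes of GRCm38, the build that mm10 denotes. *Mertk* (128698956 to 128802894) and *Tyro3* (119797733 to 119818104) are both on chromosome 2, *Gas6* (13465374 to 13494490) and *Msr1* (39581685 to 39642673) on chromosome 8, and *Cd36* (17781690 to 17888801) and *Scarb1* (125277087 to 125341094) on chromosome 5. *Pros1* is on chromosome 16 (62854307 to 62929346), *Stab1* on chromosome 14 (31139013 to 31168641), *Lrp1* on chromosome 10 (127538161 to 127621148) and *Megf10* on chromosome 18 (57133090 to 57297467). All are protein-coding genes in GENCODE M21. Exons of 2 of them meet exons of a gene on the opposite strand, *Gas6* over 34 bases shared with *Tmem255b* and *Stab1* over 112 bases shared with *Nt5dc2*. These bases are 1.33% and 1.09% of the exons of *Gas6* and *Stab1*, and the strand setting of the counting is not given in the sources used here.

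The depth behind the levels was read from the lowest base means. A gene with 1 read in 1 library has a base mean of 1 divided by the number of libraries and by the size factor of that library, so such genes share exact values. There were 10 such values, as many as libraries, each shared by 50 to 103 genes. They correspond to size factors of 0.84 to 1.15, a ratio of 1.37 between the deepest and the shallowest library, and do not say which library is which. The base means summed to 22158933 normalized reads. With these steps, the reads behind a base mean can be bounded. *Msr1*, the least counted member, rested on 69 to 93 reads over all libraries and *Cd36* on 197 to 269, which gives a counting error of at most 12.1% and 7.13% (1 SD of a Poisson count). Each of the other 8 members rested on at least 4159 reads, with a counting error of at most 1.55%. These errors cover counting only and not the difference between mice.

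Marker genes were checked against the labelled tissue. Astrocyte, oligodendrocyte and neuron markers were all above the median gene, up to 37739.5 per kb for *Mbp*, the gene of myelin basic protein. *Hoxc10*, a patterning gene of the caudal cord, had 256 per kb, while *Emx1* and *Neurod6*, from a list of forebrain genes, had 0.455 and 36.7 per kb. *Slc18a3*, the vesicular acetylcholine transporter of motor neurons, had 485 per kb, and 3 of the 5 motor neuron markers lay above the median gene, with *Isl1* at 11.5 and *Mnx1* at 16.6 per kb below it. Of the 3 skeletal muscle markers, *Acta1* lay above the median gene at 163 per kb, and *Ckm* and *Myh4* below it at 36.9 and 33.8. The mouse *Sod1* gene had a base mean of 3849, and the table has no entry of its own for the human transgene. Because whole tissue was sequenced, fewer cells of a type and less RNA per cell cannot be told apart at any gene below.

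The 10 members spanned about 3 powers of 10 in level, from 1.28 per kb (*Msr1*) to 1694 per kb (*Gas6*). The order was *Gas6*, *Lrp1*, *Tyro3*, *Megf10*, *Pros1*, *Mertk*, *Scarb1*, *Stab1*, *Cd36* and *Msr1*. Their median was 138 per kb, where the median of the 20360 genes with a level above 0 was 63.5. Above that median lay 6 members, and 4 lay above the upper quartile of 216 per kb. *Gas6* alone made up 44.2% of the members' summed level per kb and *Lrp1* 28.3%, so that the other 8 genes shared the rest. Neighbours in the order differed least at *Pros1* and *Mertk*, by 1.19 times, and at *Scarb1* and *Stab1*, by 1.27 times. Which of the neighbours differ beyond the spread between mice cannot be said from a pooled mean.

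**Figure D1:**
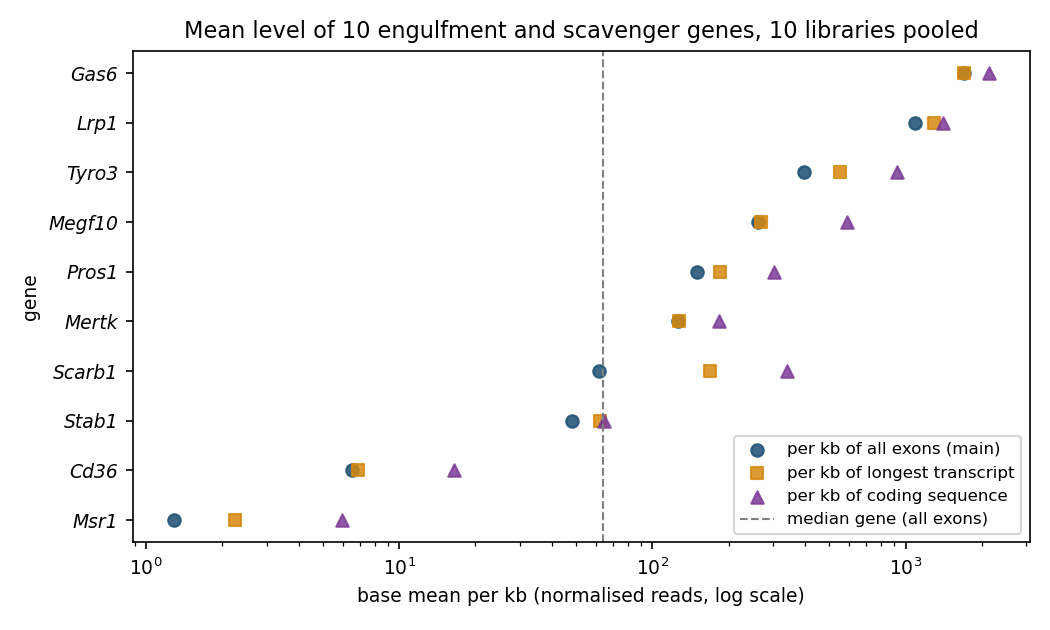
Level of each of the 10 genes on a log scale, as the base mean divided by the length in kb of all exons (circles), of the longest transcript (squares) or of the longest coding sequence (triangles), with no error bars because the authors' mean pools the 10 libraries. *Gas6* and *Lrp1* were the highest and *Cd36* and *Msr1* the lowest under all 3 lengths. The dashed line is the median gene per kb of all exons, 63.5, and applies to the circles only.

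The TAM receptors were present at unequal levels. *Tyro3*, the member of the family known mainly from neurons, had a base mean of 2450 and a level of 395 per kb. This was percentile 86.0 of the genes with a level above 0, the genes used for each percentile below. *Mertk*, the receptor that phagocytes and astrocytes use in the clearance of apoptotic cells, had a base mean of 547 and 126 per kb, at percentile 63.3. *Tyro3* was thus 3.13 times *Mertk* per kb of all exons and 5.06 times per kb of coding sequence. *Axl*, the remaining TAM receptor, which is known to rise in reactive microglia, is no member and served as a comparison, with a base mean of 2149 and 427 per kb. Of the summed level of the TAM receptors, *Axl* gave 45.0%, *Tyro3* 41.7% and *Mertk* 13.3%. *Tyro3* was 0.926 times *Axl* per kb of all exons. The order of these 2 turned under each other length tried, with 549 per kb for *Tyro3* and 504 for *Axl* by the longest transcript and 928 and 807 by coding length, and without length the ratio was 1.14.

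The ligands differed more than the receptors. *Gas6* had a base mean of 4316 and a level of 1694 per kb, at percentile 97.7 of the genes with a level above 0. *Pros1* had a base mean of 612 and 149.8 per kb, at percentile 67.0. *Gas6* was 11.3 times *Pros1* per kb of all exons, and 7.06 times per kb of coding sequence. Set against the receptors, *Gas6* was 4.28 times *Tyro3* and 13.4 times *Mertk* per kb, whereas *Pros1* was 0.379 times *Tyro3* and 1.19 times *Mertk*. *Mfge8*, chosen after its value was seen, encodes another secreted bridge between phosphatidylserine and phagocytes. It had 201 per kb, and *Gas6* exceeded it 8.42 times.

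The 4 scavenger receptors of classes A, B and H lay below the median gene per kb of all exons, *Scarb1* only just. Among protein-coding genes with a level above 0, whose median was 84.3 per kb, *Scarb1* stood at percentile 43.9 and *Stab1* at 39.9. *Scarb1*, the receptor of high-density lipoprotein, had a base mean of 521 and a level of 61.3 per kb. Its annotated exons add up to 8500 bases and its longest transcript to 3093, and with the latter its level was 168.5 per kb, where the median gene by the same length had 83.9. *Cd36*, a receptor of long-chain fatty acids and oxidised lipoprotein, had a base mean of 23.4 and 6.52 per kb, at percentile 25.0. *Msr1*, a receptor of modified lipoprotein on macrophages, had a base mean of 8.14 and 1.28 per kb, at percentile 14.7. *Stab1*, a clearance receptor of sinusoidal endothelium and of some macrophages, had a base mean of 494.99 and 48.1 per kb, which is 37.5 times *Msr1*.

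Relatives of these receptors had levels of their own. The relatives and cell type markers named from here on, other than the highest and the lowest gene of each list, were chosen after their values were seen. In class B, *Scarb2*, which encodes a lysosomal membrane protein, had 1145 per kb and was 18.7 times *Scarb1* and 176 times *Cd36*. In class A, *Marco* had 0.892 per kb, close to *Msr1*, and *Scara3* had 61.4, which is 47.8 times *Msr1*. In class H, *Stab1* was 13.9 times *Stab2*, which had 3.47 per kb.

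*Lrp1*, an endocytic receptor for lipoproteins that takes up apolipoprotein E, protease complexes and debris, had a base mean of 19230.3. Its exons add up to 17717 bases, the longest of the group, and per kb it came after *Gas6*, with 1085. *Lrp1* was 4.32 times *Lrp10*, a related receptor with 251 per kb. *Lrpap1*, the chaperone that the receptors of this family need in the endoplasmic reticulum, had 836 per kb. *Lrp2*, the megalin gene, had 3.40 per kb.

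*Megf10*, a receptor of astrocytes for engulfment, had a base mean of 2016 and a level of 261 per kb. This was percentile 78.8 of the genes with a level above 0. *Megf10* was 3.67 times *Megf11*, its close relative, which had 71.1 per kb, and 4.26 times *Scarb1*. *Megf6* had 25.0 per kb.

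**Figure D2:**
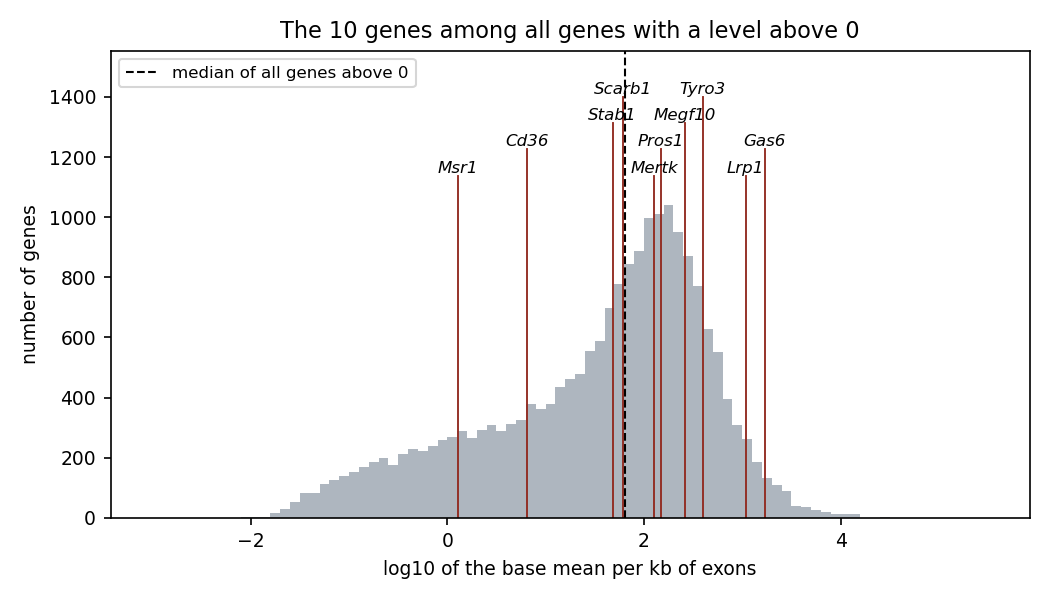
Number of genes (y axis) by the log10 of the base mean per kb of exons (x axis) for the 20360 genes above 0, with a red line at each of the 10 genes and a dashed line at the median. *Gas6* and *Lrp1* stand in the upper tail, and *Cd36* and *Msr1* at percentiles 25.0 and 14.7.

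The other genes of engulfment were taken from a list of 29, of which all were listed and 21 lay above the median gene, with a median of 201 per kb. *Calr*, which encodes calreticulin, a chaperone that also marks dying cells for uptake, was highest at 2850 per kb. *Havcr1*, a phosphatidylserine receptor of kidney epithelium, was lowest, and its base mean of 0.0868 equals the step of 1 read in the deepest library. *Timd4*, the related receptor of macrophages, had 1.13 per kb. Of the 27 other scavenger and lipoprotein receptor genes, 10 lay above the median gene, with a median of 37.0 per kb. *Scarb2* was the highest of them, and *Cd5l* the lowest at 0.455 per kb. The median of the members thus lay between the medians of these lists, which was not tested.

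Levels of cell type markers are given beside the members, as these genes are known from several of the cell types. The 7 microglia markers were all above the median gene, with *Aif1* lowest at 72.2 per kb, *Csf1r* at 527 and *Tmem119* at 207, 1.64 times *Mertk*. All 5 markers of border macrophages lay below the median gene, from 4.65 (*Lyve1*) to 14.7 per kb (*Pf4*). *Stab1* exceeded *Mrc1*, the mannose receptor gene of that list, 3.99 times, while *Cd36* and *Msr1* were lower than *Mrc1*, which had 12.1 per kb. The 6 astrocyte markers ranged from 431 (*Aldh1l1*) to 13345 per kb (*Gfap*), and the 4 endothelial markers from 101 (*Pecam1*) to 501 (*Cldn5*). T cell markers stood at 0.360 (*Cd8a*) to 1.38 per kb (*Cd4*), in the range of *Msr1*. Which cells the reads of a member came from was not tested.

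**Figure D3:**
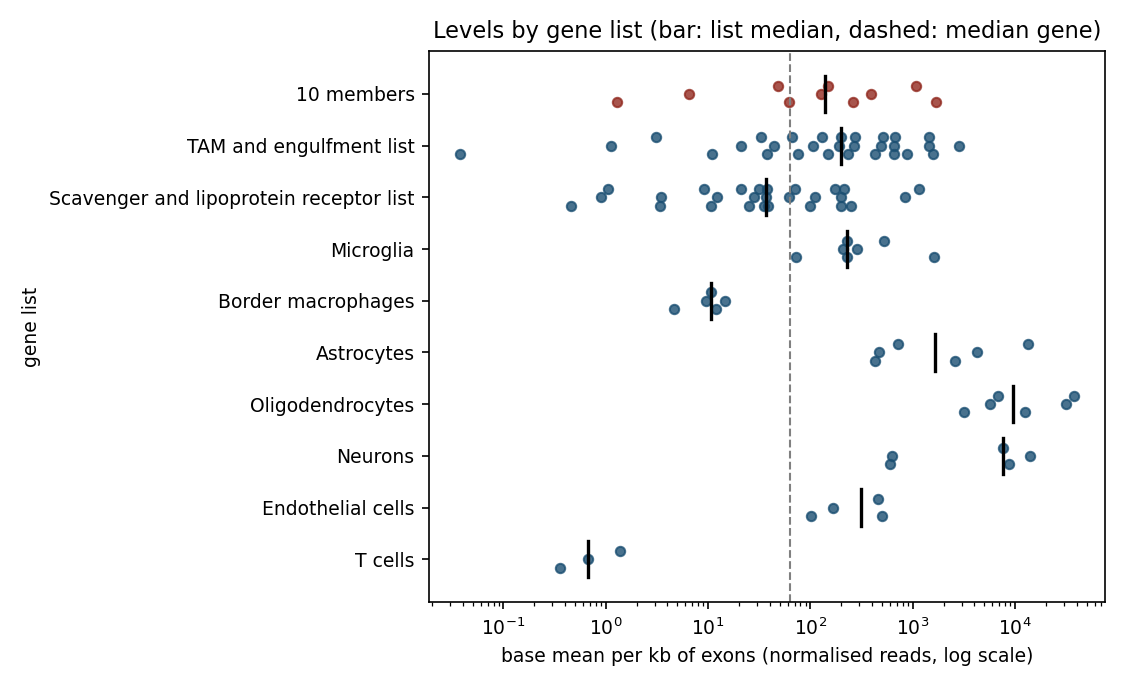
Base mean per kb of exons on a log scale (x axis) for each gene of the lists named on the y axis, with a bar at the median of each list and a dashed line at the median gene. The 10 genes spread from the level of T cell markers to that of astrocyte markers, and their median, 138 per kb, lies below that of the microglia markers, 229.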

How the data were processed

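RNA of the spinal cord of 10 mice was sequenced, of the lumbar region per the methods, and groups were taken from the sample titles. Reads were filtered with Fastp, aligned to mm10 with HISAT2 2.1.0, counted on genes with featureCounts 2.0.2 using uniquely mapped reads, and compared with DESeq2 by the authors, per the methods and the submitters' processing notes. The gene annotation and the strand setting are not given in the sources used here. The deposited base mean is a signal, the mean over all libraries of reads after the authors had scaled each library by its size factor. The other columns (fold change, standard error, Wald statistic, p-value, adjusted p-value) are the authors' own comparison and were not used, and no test between groups was made.

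Symbols were matched to GENCODE M21 (GRCm38), where 97.1% of the genes with a base mean above 0 matched 1 gene and 43 symbols of several genes were left out. The base mean was divided by the summed length of all exons. Size factors were taken from lowest values shared by at least 10 genes, after rounding to 7 decimals. In 1 run of libraries simulated for the 25232 genes, with Poisson counts and no spread between mice, all 10 size factors were recovered. Promoter windows are from RefSeq. The members and lists were chosen with earlier results of these data known. The genes named are the members, *Axl*, and the highest, the lowest and any gene at 0 of each list. Other list genes named fall outside this rule, and most are said to be chosen later. *Emx1*, *Mnx1* and *Ckm* also fall outside it and are not so marked where they appear. A few list genes under this rule are left out of the text. The coding length was taken from GENCODE in place of a RefSeq protein table. Alternatives were the gene length, the genes compared with, and the minimum for a shared value. Computations ran in Python 3.11.15 with the packages pandas 2.3.3, numpy 2.4.6, scipy 1.17.1 and matplotlib 3.10.9.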

Additional observations from a re-analysis of the deposited data

How the results depend on the processing

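The length of the gene moved most values. With the longest transcript, the coding length and no division by length in turn, *Tyro3* over *Mertk* was 4.32, 5.06 and 4.48 against 3.13, and *Gas6* over *Pros1* was 9.13, 7.06 and 7.05 against 11.3. The share of the highest member was 38.9%, 35.7% and 63.6% against 44.2%, and without length the highest member was *Lrp1* in place of *Gas6*. The median of the members was 177, 322 and 579.8 against 138. *Msr1* was lowest under all 3, and 2, 3 and 2 members took another rank. The largest effect of the longest transcript was on *Scarb1*, 2.75 times. The number of members above the median gene was 8 with genes at 0 included, 6 when only genes at a base mean of 10 or more were compared with and 8 without length, against 6. With members and genes compared by the same other length, chosen after seeing the data, it was 7 by the longest transcript (median gene 83.9) and 6 by coding length (median gene 253), and *Scarb1* lay above the median gene in both while *Stab1* lay below. A minimum of 20 genes for a shared value left the ratio of the size factors at 1.37. No paired analysis was possible because the table holds no values of single libraries, and for the same reason no replicate could be left out.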

Other observations

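Among the marker genes of erythrocytes, *Hbb-bs* and *Hba-a1*, the genes of adult haemoglobin chains, were listed at 0, while *Alas2*, the enzyme of haem synthesis in red cells, had a base mean of 137 and 57.1 per kb. *Hbb-bt* and *Hba-a2*, singled out after their values were seen, were also listed at 0. So were the other haemoglobin genes looked up, *Hba-x*, *Hbb-b1*, *Hbb-b2*, *Hbb-bh1* and *Hbb-bh2*, except *Hbb-y*, which had a base mean of 0.43. An exact 0 in this table is therefore not read as absence, and none of the members was listed at 0.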
